A study of Gallus gallus with 14 samples.

Results

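Among the RefSeq transcripts measured in chicken blastodermal cells (BC) and in embryonic male gonads, 14 were clearly present in BC and close to absent in every gonad library. They were chosen by their levels in FPKM (fragments per kilobase of transcript, scaled to the sequencing depth). A transcript with a RefSeq mRNA identifier was kept where both BC libraries reached at least 20 FPKM and each of the 4 gonad libraries stayed under 1 FPKM. FOXL2 was left out beforehand. These limits kept 14 of 6528 RefSeq mRNA identifiers, in a table of 42501 identifiers in all. Of the 2633 RefSeq identifiers that reached 20 FPKM in both BC libraries, the 14 were 0.532%. Because BC and gonad levels chose them, those levels are given below as a description and without a test.

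Total RNA was sequenced strand-specifically in 6 libraries of JA57 broilers, 2 each of BC, of gonads at embryonic day 11 (E11G) and of gonads at embryonic day 14 (E14G). No treatment or genetic change is given for the birds. BC came from blastoderms of eggs that had not been incubated, and gonads were whole male organs, with RNA pooled over several embryos. Whole gonads hold germ cells together with supporting, interstitial, vessel and blood cells, so fewer cells of a type and less RNA per cell cannot be told apart in these values. A second assay covered periodate-resistant small RNA in 8 libraries from other birds, 2 each of BC, of cultured primordial germ cells from E7 gonads (E7PGC), of E11G and of E14G. BC there came from Leghorn layers and E7PGC from Arbor Acres broilers. Of the gonad libraries, the first of each stage was from Cobb500 broilers, read on a MiSeq, and the second from Leghorn layers, read on a Solexa machine. Effects of breed and of machine therefore cannot be told apart there. The small RNA lists rest on between 1394576 (E11G1) and 10786087 (E7PGC1) reads, while FPKM hold no counts and leave the RNA-seq depth unknown.

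The blastoderm of a freshly laid egg is a disc of epiblast, which gives rise to the embryo proper, above a forming hypoblast. Wnt and FGF signals from its posterior margin and hypoblast place the primitive streak, where mesoderm and endoderm form, and T-box and forkhead factors carry out these fates. The cells are still pluripotent, and RNA-binding proteins such as LIN28A are part of that state.

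By role, the 14 transcripts covered signals, transcription factors, pluripotency factors and a few others. Wnt and FGF ligands were WNT8A, WNT3A and FGF8. Transcription factors of streak, endoderm and ectoderm were CDX2, TBX6, FOXA2, TFAP2A and MAFA, and the TEAD cofactor VGLL2 stood beside them. LIN28A and ERNI are factors of early pluripotent cells. ERBB3 is a receptor, CDKN1A a cell cycle inhibitor, and ASTL an egg protease. Each had a gene symbol, and their loci lay on 10 galGal5 chromosomes. The median locus spanned 8634.5 bp, against 12357 bp over all RefSeq mRNA identifiers.

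The 14 transcripts averaged between 22.1 FPKM for WNT3A and 274 FPKM for ASTL in BC. Their median BC mean was 36.8 FPKM, against 54.5 FPKM over all RefSeq identifiers of at least 20 FPKM in both BC libraries, so most were moderately rather than highly abundant there. Of the 14, 7 averaged over 40 FPKM and 7 under 32 FPKM. The 2 BC libraries differed by between 1.83% (FGF8) and 28.2% (CDX2) of the mean, with a median of 9.77%. The second BC library was the higher one for 9 transcripts. Of their 56 gonad values, 8 were exactly 0, 4 lay above 0 but under 0.001 FPKM, and 14 exceeded 0.5 FPKM. In the fit over all transcripts (limma on log2(FPKM + 1) with Benjamini-Hochberg adjustment), 41.1% of 22368 tested transcripts were called higher in BC and 39.2% lower. All 14 were among the higher ones, which their choice had fixed. In either direction, 80.3% were called.

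**Figure D1:**
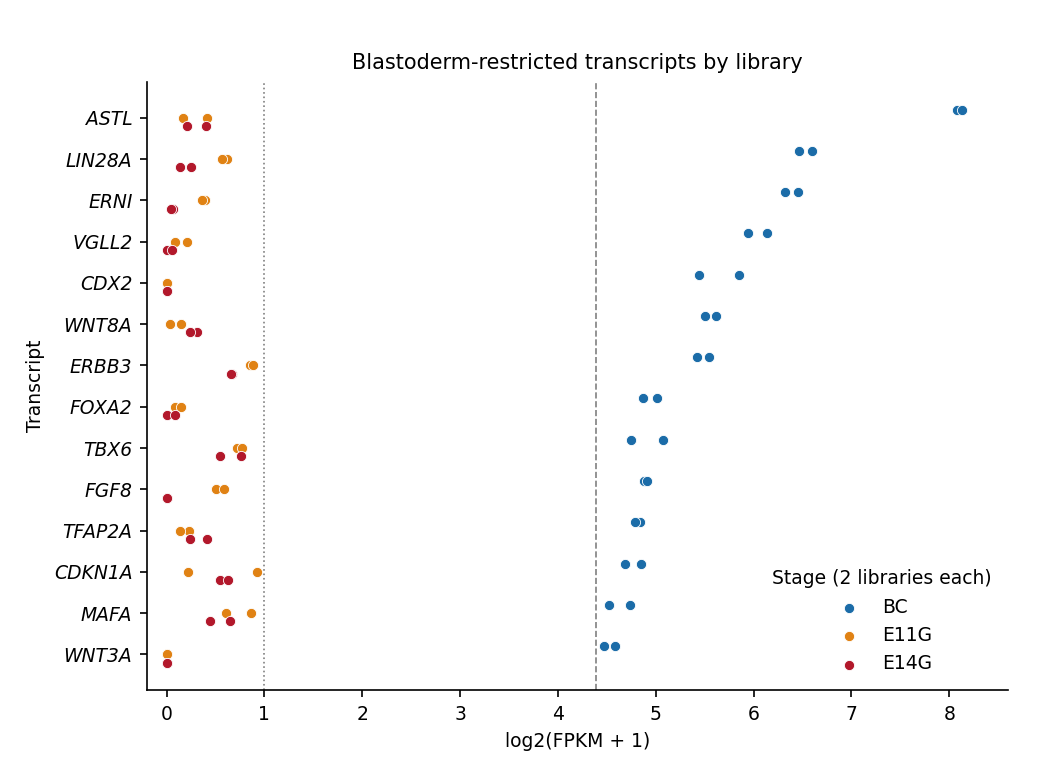
The 14 transcripts by library, as log2(FPKM + 1), ordered by their mean in BC. Points are single libraries, 2 for each stage, and the dashed and dotted lines mark the limits of 20 FPKM for BC and 1 FPKM for gonads. ASTL stood apart at the top with 270 and 279 FPKM in BC, and the highest gonad value was 0.898 FPKM.

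WNT8A (NM_205531, chromosome 13, 14339876 to 14343808), a ligand of canonical Wnt signalling, had 48.0 and 44.4 FPKM in BC, against 0.111 and 0.0237 FPKM in E11G and 0.245 and 0.180 FPKM in E14G. All gonad libraries were low, and those of E14G lay above those of E11G. FGF8 (NM_001012767, chromosome 6, 22705444 to 22711791), a fibroblast growth factor of the early streak, had 28.5 and 29.0 FPKM in BC, against 0.415 and 0.501 FPKM in E11G, and was listed at 0 in both E14G libraries. FGF8 was the transcript on which the BC libraries were closest to each other.

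WNT3A, another canonical Wnt ligand, was listed under a pair of RefSeq identifiers at the same locus (chromosome 2, 2498227 to 2581084). NM_001171601, which met the limits, had 21.1 and 23.0 FPKM in BC and no more than 1.84e-05 FPKM in any gonad library. NM_204675 had 17.4 and 13.6 FPKM in BC, against 0.224 and 0.130 FPKM in E11G and 0.125 and 0.311 FPKM in E14G, and missed the BC minimum. How the reads of shared exons were divided between both identifiers is uncertain. Their sum was 38.5 and 36.6 FPKM in BC, against 0.224 and 0.130 FPKM in E11G and 0.125 and 0.311 FPKM in E14G, and the sum also met the limits.

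Relatives of the ligands, a list drawn up after the 14 were known, did not share their pattern throughout. Counts of calls for relatives and lists, here and below, stand beside 41.1% of all tested transcripts called higher in BC and 39.2% lower. Whether any count differs from these shares was not tested. Of the 9 other tested transcripts of Wnt ligands, 7 were called higher in BC and 2 lower. The other WNT3A identifier, NM_204675, was among the 7, so they were not all from other genes. WNT6, also among the 7, lost its call when libraries were rescaled by median of ratios. WNT5B, a ligand of the non-canonical branch, had 127 and 129 FPKM in BC, against 7.21 and 6.60 FPKM in E11G and 12.9 and 16.3 FPKM in E14G (log2 difference of BC minus gonads 3.54, SE 0.10, limma adjusted p = 7.82e-06). WNT5B was more abundant in BC than WNT8A and WNT3A, but its gonad libraries were far from 0. Among ligands of other genes, WNT11B was the closest in shape, with 5.77 and 5.78 FPKM in BC and at most 0.120 FPKM in the gonads. WNT5A ran the other way at 14.25 and 14.02 FPKM in BC, against 17.4 and 17.3 FPKM in E11G and 20.2 and 29.0 FPKM in E14G (log2 difference -0.51, SE 0.14, limma adjusted p = 0.0206). That call was lost without either BC library (adjusted p = 0.102 and 0.113), without either E11G library (0.0558 and 0.0549) and with no filter on low values (0.0735).

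Among the Wnt receptors and the secretion factor WLS, 6 of 11 tested transcripts were called higher in BC and 2 lower, and 4 were lower after that rescaling. FZD7, a Frizzled receptor, averaged 98.7 ± 7.18 FPKM in BC (SD, n = 2) and 19.1 ± 2.21 FPKM in gonads (SD, n = 4). Here and below, the SD of gonads spans E11G and E14G and so holds any difference between these stages. FZD1 averaged 34.0 ± 1.92 FPKM in BC and 62.9 ± 2.80 FPKM in gonads. WLS, which carries Wnt proteins to the cell surface, averaged 110 ± 4.50 FPKM in BC and 39.9 ± 3.74 FPKM in gonads. Transcripts of Frizzled receptors and of WLS were thus measured in gonad libraries in which WNT8A and WNT3A were close to 0.

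Of 11 other tested FGF ligand transcripts, 6 were called higher in BC and 3 lower. FGF13, an intracellular member of the family, averaged 18.6 ± 0.484 FPKM in BC and 0.963 ± 0.555 FPKM in gonads. FGF4 averaged 0.933 ± 0.168 FPKM in BC and 0.0521 ± 0.0605 FPKM in gonads, so it was low at all stages. Of the 3 receptor transcripts, FGFR1 and FGFR2 were called lower in BC and FGFR3 higher, at 9.93 and 10.02 FPKM in BC, against 7.001 and 4.014 FPKM in E11G and 5.76 and 6.11 FPKM in E14G. The FGFR3 call was lost after rescaling, without the filter and without either BC library. FGFR1 averaged 12.2 ± 0.394 FPKM in BC and 67.3 ± 6.59 FPKM in gonads (log2 difference -2.37, SE 0.07, limma adjusted p = 7.89e-06), opposite in direction to the ligand FGF8.

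The transcription factors of mesoderm, endoderm and ectoderm were the largest group. CDX2 (NM_204311, chromosome 1, 176067482 to 176070939), a caudal homeobox factor of posterior cells, had 56.6 and 42.6 FPKM in BC and was listed at 0 in all 4 gonad libraries. It was the only one of the 14 listed at 0 throughout the gonads, and no fold is given. Its relatives CDX4, at 0.188 and 0.0923 FPKM in BC, and CDX1, at 0.0310 and 0 FPKM in BC, were near 0, so CDX2 was the main caudal factor measured in BC.

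TBX6 (NM_001030367, chromosome 15, 8285249 to 8296169), which is also known as Tbx6L, is a T-box factor of paraxial mesoderm. It had 32.6 and 25.8 FPKM in BC, against 0.642 and 0.701 FPKM in E11G and 0.464 and 0.690 FPKM in E14G. Of 6 other tested T-box transcripts, 3 were called higher in BC and 1 lower, or 2 lower after rescaling by median of ratios. EOMES, a T-box factor of mesendoderm, reached 454 and 485 FPKM in BC, against 2.24 and 2.27 FPKM in E11G and 0.516 and 0.398 FPKM in E14G. EOMES exceeded all 14 transcripts in BC and failed the limits only through the E11G libraries. TBXT, the brachyury gene of the streak, had 4.26 and 2.88 FPKM in BC, below the minimum.

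FOXA2 (NM_204770, chromosome 3, 3365541 to 3369041), a forkhead factor of endoderm, hypoblast and node, had 28.2 and 31.3 FPKM in BC. In the gonads it had 0.0646 and 0.109 FPKM in E11G and 0 and 0.0592 FPKM in E14G. TFAP2A (NM_205094, chromosome 2, 63495554 to 63509046), the AP-2 alpha factor of surface ectoderm and neural crest, had 27.6 and 26.7 FPKM in BC, against 0.175 and 0.0996 FPKM in E11G and 0.334 and 0.180 FPKM in E14G. Both were low in every gonad library, with FOXA2 the lower of them on average. The related TFAP2B had 1.78 and 1.66 FPKM in BC, against 0.423 and 0.0784 FPKM in E11G and 0.0667 and 0.0923 FPKM in E14G.

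MAFA (NM_205025, chromosome 2, 148778566 to 148780708), a large Maf leucine zipper factor known from lens and pancreatic beta cells, had 22.0 and 25.6 FPKM in BC, against 0.824 and 0.523 FPKM in E11G and 0.358 and 0.573 FPKM in E14G. The related MAF showed the reverse, with 0.118 and 0.0667 FPKM in BC, against 13.6 and 17.3 FPKM in E11G and 11.4 and 13.0 FPKM in E14G (log2 difference -3.75, SE 0.12, limma adjusted p = 9.64e-06). MAF thus ran opposite to the direction that the limits had fixed for MAFA, with no overlap between its BC and gonad libraries.

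VGLL2 (NM_001145990, chromosome 3, 63207045 to 63212424), a vestigial-like cofactor that binds TEAD transcription factors, had 60.4 and 69.5 FPKM in BC, against 0.0603 and 0.157 FPKM in E11G and 0 and 0.0364 FPKM in E14G. VGLL4 was present at all stages and called lower in BC, at 32.3 ± 2.34 FPKM in BC and 44.6 ± 2.06 FPKM in gonads (log2 difference -0.45, SE 0.06, limma adjusted p = 0.00132). Of 5 tested TEAD transcripts, the possible partners, 1 was called higher in BC, 1 lower and 3 not. The higher one was TEAD1, and all the others were identifiers of the single gene TEAD4. TEAD1 averaged 136 ± 2.39 FPKM in BC and 45.5 ± 3.26 FPKM in gonads (log2 difference 1.56, SE 0.05, limma adjusted p = 1.02e-05). TEAD4 (NM_204771) averaged 7.73 ± 0.633 FPKM in BC and 22.3 ± 1.87 FPKM in gonads (log2 difference -1.42, SE 0.08, limma adjusted p = 4.70e-05). Another TEAD4 identifier, NM_001306152, averaged 6.78 ± 0.394 FPKM in BC and 6.87 ± 1.49 FPKM in gonads and was not called. How reads were divided between the TEAD4 identifiers is uncertain. TEAD transcripts were thus measured where VGLL2 was high and where it was nearly absent.

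LIN28A (NM_001031774, chromosome 23, 175674 to 186981), an RNA-binding protein that blocks maturation of let-7 microRNAs, had 87.0 and 96.0 FPKM in BC, against 0.536 and 0.484 FPKM in E11G and 0.103 and 0.188 FPKM in E14G. Its relative LIN28B had 82.4 and 86.5 FPKM in BC, against 8.13 and 6.41 FPKM in E11G and 6.392 and 5.004 FPKM in E14G (log2 difference 3.53, SE 0.13, limma adjusted p = 1.25e-05). The pair was near equal in BC. LIN28B stayed above 1 FPKM in the gonads, where the limits had required LIN28A to be under it.

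ERBB3 (NM_001044669, chromosome 33, 646831 to 664492), a neuregulin receptor with a weak kinase that signals as a dimer with ERBB2, had 42.0 and 45.7 FPKM in BC, against 0.803 and 0.847 FPKM in E11G and 0.588 and 0.578 FPKM in E14G. ERBB2 had 39.7 and 39.6 FPKM in BC, against 21.4 and 25.4 FPKM in E11G and 22.5 and 22.8 FPKM in E14G. EGFR averaged 4.05 ± 0.0430 FPKM in BC and 21.2 ± 0.725 FPKM in gonads (log2 difference -2.14, SE 0.06, limma adjusted p = 6.97e-06), and ERBB4 was lower in BC as well. Within the family, BC thus held mainly ERBB2 and ERBB3, and gonads mainly ERBB2 and EGFR.

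CDKN1A (NM_204396, chromosome 26, 1589705 to 1591611), the p21 inhibitor of cyclin-dependent kinases, had 24.7 and 27.8 FPKM in BC, against 0.898 and 0.164 FPKM in E11G and 0.456 and 0.546 FPKM in E14G. The E11G libraries were farther apart than for any other of the 14. CDKN1B, the related p27 inhibitor, averaged 26.3 ± 1.51 FPKM in BC and 33.6 ± 5.63 FPKM in gonads, so its stages were far closer.

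ASTL (NM_001305090, chromosome 5, 22351058 to 22362936), an astacin-like metalloprotease that in the mouse egg cleaves a zona pellucida protein after fertilization, had 270 and 279 FPKM in BC, against 0.327 and 0.127 FPKM in E11G and 0.156 and 0.320 FPKM in E14G. It was the highest of the 14 and ranked no lower than 213 of 6528 RefSeq identifiers in either BC library. Of 10 tested transcripts on a list of oocyte and maternal factors, none of them among the 14, 9 were called higher in BC and none lower. The 9 include OTX2, which is counted among the pluripotency and epiblast factors below as well. TDRD7 was called lower after rescaling by median of ratios. Examples are CCNB3, a B-type cyclin, at 187 ± 9.89 FPKM in BC and 48.9 ± 8.77 FPKM in gonads, and ZP4, an egg coat protein, at 1.01 ± 0.210 FPKM in BC and 0.247 ± 0.0725 FPKM in gonads.

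ERNI (NM_001080874, chromosome 5, 53675650 to 53737081) is an early response gene of neural induction in the chick and belongs to the multi-copy ENS family. It had 86.8 and 78.7 FPKM in BC, against 0.317 and 0.281 FPKM in E11G and 0.0442 and 0.0300 FPKM in E14G. Of the 14, 12 shared no bases of their locus with another identifier. ERNI and WNT3A were the exceptions. An assembled transcript with the same locus as ERNI had 0.283 and 0.237 FPKM in BC, against 1.61 and 1.44 FPKM in E11G and 1.62 and 1.52 FPKM in E14G, so the locus was not silent in gonads. The family members ENS-3, at 16.6 and 18.4 FPKM in BC, and ENS-1, at 7.63 and 5.07 FPKM in BC, were at most 0.242 FPKM in gonads. Reads of such copies can be divided among them, so the level of each copy is uncertain.

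**Figure D2:**
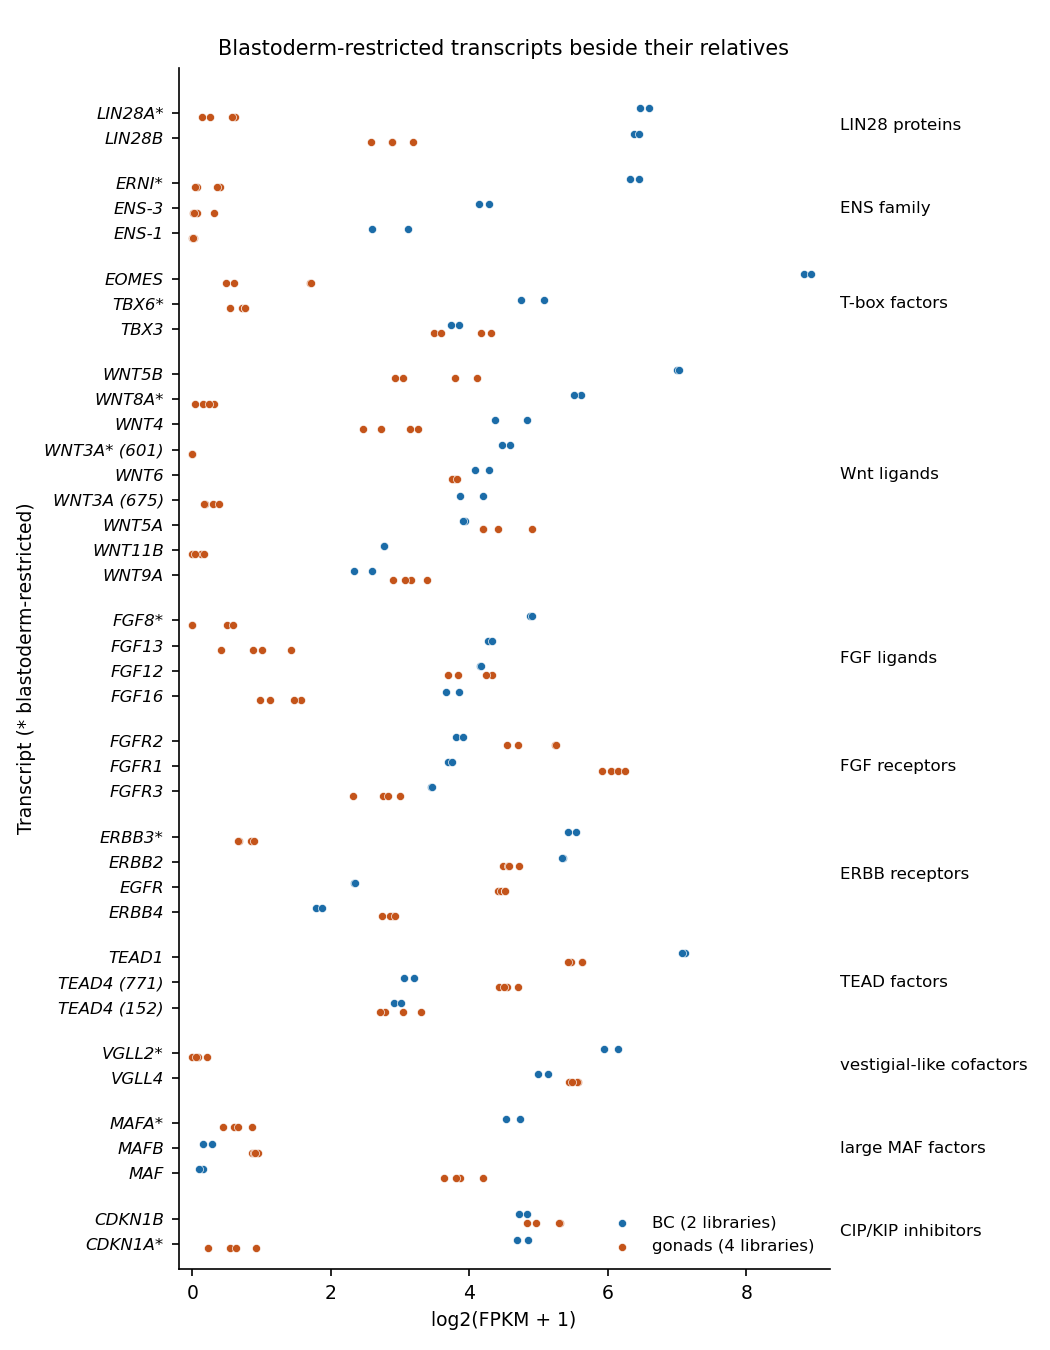
Blastoderm-restricted transcripts (asterisks) beside relatives and partners, as log2(FPKM + 1). Points are single libraries, 2 for BC and 4 for gonads, and the digits in brackets end the RefSeq identifier where a gene has several. In families of more than a few genes, relatives reaching 5 FPKM in the BC or gonad mean are drawn. MAF, EGFR and FGFR1 were higher in gonads, while LIN28B, WNT5B and EOMES were higher in BC.

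Wider lists of the same pathways gave the setting of the 14. Only listed symbols found among the RefSeq identifiers could be counted, and some symbols are other names of the same gene. Found were 13 of 32 pluripotency, 11 of 16 streak, 12 of 18 hypoblast, 21 of 29 signalling and 9 of 22 epithelial symbols. Of the oocyte list above, 11 of 25 were found. The pluripotency factors POU5F3 and PRDM14 were among those not found. Of 11 tested pluripotency and epiblast factors outside the 14, 10 were called higher in BC and none lower (median log2 difference 3.53, against 0.02 over all tested transcripts). NANOG, the pluripotency homeobox factor, averaged 950 ± 72.5 FPKM in BC and 16.4 ± 14.6 FPKM in gonads, while KLF2 averaged 2.48 ± 0.162 FPKM in BC and 2.80 ± 0.819 FPKM in gonads and was not called. Of 6 tested streak and mesendoderm factors outside the 14, 5 were called higher and none lower (median 1.65). CHRD, a BMP antagonist, was the one without a call. MSGN1, MESP1 and CDX4 of this list were under 1 FPKM in every library and not tested. In BC, MSGN1 had 0.522 and 0.332 FPKM and MESP1 0.396 and 0.175 FPKM.

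Of 17 tested transcripts of Nodal, BMP, Wnt and FGF signalling, 13 were called higher and 3 lower (median 0.88), and 11 and 4 after rescaling by median of ratios. WNT3 and LEFTY1 were under 1 FPKM in every library and not tested. The other WNT3A identifier, NM_204675, was among the 13. BMP4 averaged 67.4 ± 2.44 FPKM in BC and 5.37 ± 0.861 FPKM in gonads, and the Wnt antagonist SFRP1 averaged 15.9 ± 0.951 FPKM in BC and 39.2 ± 3.23 FPKM in gonads. Hypoblast and endoderm factors were mixed, with 5 of 9 tested transcripts higher and 4 lower (median 1.33). CER1 and RBP4 were under 1 FPKM in every library and not tested, as was an identifier of TTR, NM_001281498. RBP4A, a separate symbol not on this list, reached 20 FPKM in both BC libraries and met the limits with a gonad limit of 2 FPKM. GATA5 averaged 50.3 ± 0.389 FPKM in BC and 4.13 ± 2.07 FPKM in gonads, with 5.80 and 6.04 FPKM in E11G and 2.36 and 2.31 FPKM in E14G. The plasma apolipoprotein APOA1 averaged 37.0 ± 4.93 FPKM in BC and 834 ± 92.4 FPKM in gonads. Of 7 tested epithelial junction and keratin genes, 6 were higher, and CLDN5 was lower. KRT5 was under 1 FPKM in every library and not tested. CLDN1, a tight junction claudin, had the highest BC level at 1559 ± 22.4 FPKM in BC and 72.8 ± 29.0 FPKM in gonads. It had 90.3 and 104 FPKM in E11G and 47.7 and 48.7 FPKM in E14G. EPCAM, an epithelial adhesion protein, had the largest difference at 727 ± 42.0 FPKM in BC and 3.94 ± 1.09 FPKM in gonads.

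Markers of the labelled tissues were read in every library, as far as their symbols were found. Found were 6 of 9 blastodermal, 4 of 6 germ cell, 5 of 7 Sertoli and 8 of 10 steroidogenic and interstitial symbols. Of blood symbols 10 of 16 were found, and of endothelial symbols 3 of 6. The 6 blastodermal markers, LIN28A among them, summed to between 1747 and 1892 FPKM in BC libraries and between 17.4 and 79.7 FPKM in gonad libraries. Of the 4 germ cell, 8 steroidogenic and interstitial and 3 endothelial markers tested, all were called lower in BC, as were 4 of 5 Sertoli and 7 of 9 blood markers. None of the germ cell, Sertoli, interstitial or endothelial markers was at 0 in a gonad library. Blastodermal ENS-1 was at 0 in 1 gonad library, and the globin transcript HBBA was listed at 0 in every library although other globins were abundant in gonads, so a listed 0 need not mean absence. Marker levels thus differed between the BC and gonad libraries that gave every value above. The part of these cell types in those values was not tested. Germ cell markers summed to between 21.7 and 24.6 FPKM in BC and between 103 and 120 FPKM in gonads, and none of the 4 was called between the gonad stages, while some blood and endothelial markers were, as given below.

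The limits had named neighbours on either side. CDKN1A at 0.898, ERBB3 at 0.847 and MAFA at 0.824 FPKM were nearest to the gonad limit from inside. Just outside it stood OTX2, a homeobox factor of epiblast and forebrain, with 55.2 and 58.3 FPKM in BC and 1.01 FPKM in an E11G library. GJB2, a gap junction connexin, followed with a highest gonad value of 1.19 FPKM and PLAC8L1 with 1.34 FPKM. At the BC minimum, WNT3A at 21.1, MAFA at 22.0 and CDKN1A at 24.7 FPKM lay inside, and SOX14 at 17.7, GSC at 17.4 and ENS-3 at 16.6 FPKM lay outside. GSC, the goosecoid factor of the organizer, had 17.4 and 21.8 FPKM in BC and at most 0.0595 FPKM in gonads.

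The rule capped both gonad stages without setting a difference between them, so E14G was compared with E11G. The 14 passed the filter of 1 FPKM in at least 1 library only through BC. In 6 of them, LIN28A, ERNI, VGLL2, ERBB3, FOXA2 and FGF8, both E14G libraries lay below both E11G libraries. The same held for 25% of all tested transcripts and for 27.7% of 2052 tested transcripts that were under 1 FPKM in every gonad library. WNT8A and TFAP2A had both E14G libraries above both E11G libraries, as had 28.2% of all tested transcripts and 17.8% of the 2052. In the other 6 the stages overlapped or were equal.

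FGF8 was listed at 0 in both E14G libraries, with a log2 difference of E14G minus E11G of -0.54 (SE 0.09). LIN28A differed by -0.40 (SE 0.10) and ERNI by -0.32 (SE 0.10). In the fit over all transcripts, 3.84% were called between the gonad stages, 2.32% with E14G lower, and 1 of the 14, FGF8, was among the lower ones. That call was lost with no filter on low values and on leaving out any 1 of the 6 libraries, and 3 of the 14 had an unadjusted p under 0.05, against 23.4% of all tested transcripts. Since the limits held all gonad values of the 14 under 1 FPKM and BC alone carried them past the filter, no difference between the gonad stages is read from these calls, and the values stand as a description. The labels do not say whether libraries of a stage came from separate animals, so these p-values measure only the spread between libraries, which may be technical.

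Some pluripotency factors outside the 14 were called in the same contrast. Of 11 tested, DNMT3B, NANOG, SALL4 and SOX3 were called lower in E14G, none was called higher, and 7 had no call. NANOG had 3.24 and 4.33 FPKM in E14G, against 28.7 and 29.2 FPKM in E11G (log2 difference -2.66, SE 0.13, limma adjusted p = 0.0115), and DNMT3B, a de novo DNA methyltransferase, had 11.04 and 11.37 FPKM in E14G, against 34.7 and 38.8 FPKM in E11G (log2 difference -1.63, SE 0.08, limma adjusted p = 0.0115). Of the 4 calls, 0 remained without either BC library, which enters this contrast only through the filter and the shared spread, and 2 or 3 remained without 1 gonad library. Of the blood markers, 3 of 9 tested (HBE, HBZ and HBBR) and, of the endothelial markers, 1 of 3 (KDR) were called lower in E14G as well, and no marker of these lists was called higher. KDR, a receptor for vascular growth factor, had 9.40 and 10.8 FPKM in E14G, against 33.2 and 29.7 FPKM in E11G. None of these 4 marker calls remained without either BC library. The part of these cells in the values of the pluripotency factors was not tested.

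**Figure D3:**
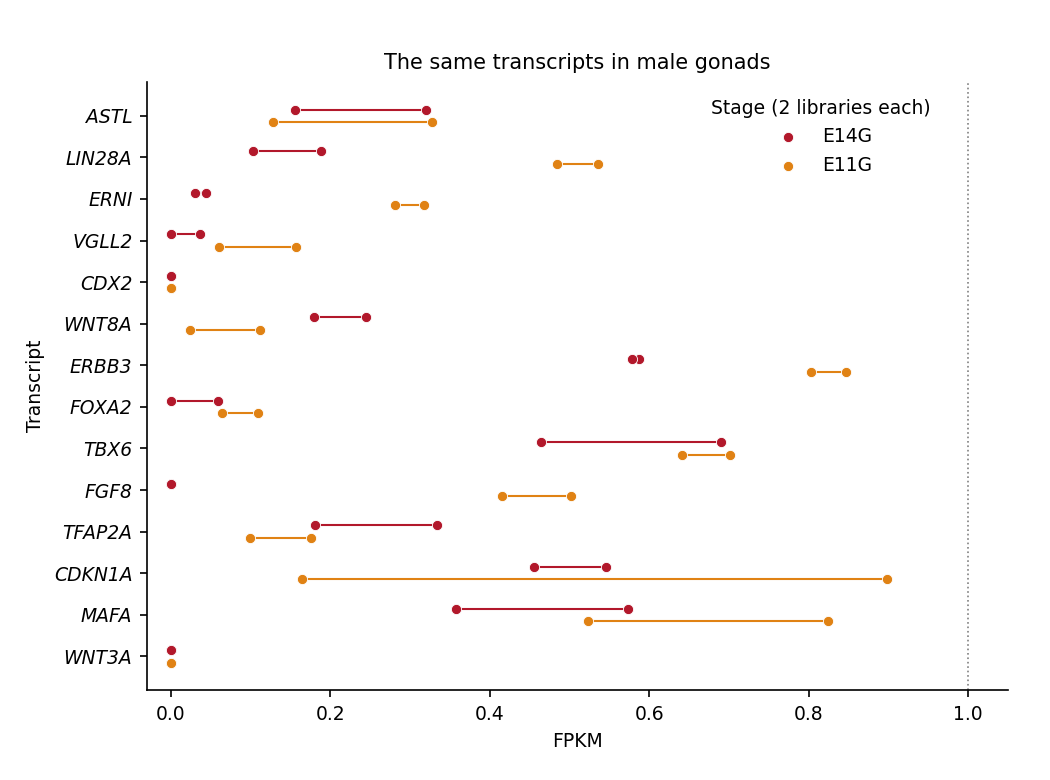
Gonad levels of the 14 transcripts in FPKM, with E14G above E11G in each row. Points are single libraries, 2 for each stage, joined by a line, and the dotted line marks the limit of 1 FPKM. LIN28A, ERNI, ERBB3 and FGF8 showed separated stages with E14G lower, while CDKN1A spanned 0.164 to 0.898 FPKM in E11G.

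Small RNA gave a readout that the limits did not use. PIWI-interacting RNAs (piRNAs) are small RNAs of the germline that silence transposable elements, and they arise in genomic clusters. Of the 14 loci, only that of ERNI overlapped a called piRNA cluster in any of the 8 libraries, against 4.03% of 6528 RefSeq identifiers. ERNI overlapped a cluster in all 8. The calls lay between 53685928 and 53690488 on chromosome 5 and covered 3732 to 4556 bp of a locus of 61432 bp. Where in this locus the ERNI transcript itself lies is not given in the table, so the overlap is with the locus and not with a known exon.

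The cluster at ERNI had normalized hits, in RPM (scaled to the reads of each list), of 87.1 and 92.8 RPM in BC and 514 and 391 RPM in E7PGC. In the gonads it had 1140 and 793 RPM in E11G and 397 and 418 RPM in E14G. BC was lowest, E11G highest, and E7PGC and E14G overlapped. The mean was 89.9 ± 4.03 RPM in BC, 452 ± 86.5 RPM in E7PGC, 967 ± 245 RPM in E11G and 407 ± 14.7 RPM in E14G (SD, n = 2 each). These are sums over a region called anew in each library, so the value per kilobase of called length is given beside them. It was 19.3 and 24.9 RPM per kb in BC, 113 and 86.5 in E7PGC, 256 and 174 in E11G and 90.2 and 91.7 in E14G, and BC was again lowest and E11G highest. No test was made with 2 libraries a stage and calls only. RPM are shares of each list, so a very large cluster leaves less for the others. The largest cluster held 202085 and 205916 RPM in the BC lists, against at most 45847 RPM in any other list. Its part in the low BC values at ERNI was not tested. The SD of each gonad stage spans both breeds and machines. Within the Leghorn libraries, the order was the same, with 87.1 and 92.8 RPM in BC, 793 RPM in E11G and 418 RPM in E14G. The Cobb500 libraries had 1140 RPM in E11G and 397 RPM in E14G.

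The lists also give base shares. They are given for the cluster at ERNI alone and were not set against those of other clusters, all called by the authors on piRNA candidates. Between 51.8% and 59.7% of the normalized hits began with T, and between 32.4% and 44.6% had A at position 10. The share on the main strand was 86.2% and 87.0% in BC and 90.5% and 92.7% in E7PGC. It was 75.0% and 81.6% in E11G and 72.5% and 78.3% in E14G. The minus strand was the main one in every library other than the Cobb500 libraries of both gonad stages, which were called dual-stranded.

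Both other ENS loci also had clusters. That of ENS-1 on chromosome 2 was of the same order as at ERNI, with 91.9 and 121 RPM in BC and 640 and 497 RPM in E7PGC. In the gonads it had 1325 and 858 RPM in E11G and 473 and 470 RPM in E14G. Because hits of a read were shared between its places in the genome, near-identical copies can carry the same reads, and the values at these copies are not independent. The locus of ENS-3, on an unplaced scaffold of chromosome 2, had 34.5 and 40.9 RPM in BC and 335 and 204 RPM in E7PGC, against 289 RPM in each E11G library, and no cluster was called there in E14G. Among the stages with a call at ENS-3, BC was lowest, and E11G lay within the range of E7PGC in RPM. The called length there was 4125 bp in E11G1, against 8759 bp in E11G2. Per kilobase of called length, ENS-3 had 3.94 and 4.64 RPM in BC and 37.6 and 23.4 RPM in E7PGC. In E11G it had 70.1 and 33.0 RPM per kb, so E11G1 then lay above both E7PGC libraries and E11G2 between them. E14G has no value there, so its place in the order is unknown. The ERNI transcript was highest where its cluster was lowest, but this inverse order rests on BC alone. That the transcript was highest in BC had been fixed by the limits that chose it. Between the gonad stages both means were lower in E14G. The transcript had 0.299 FPKM in E11G and 0.0371 FPKM in E14G, and the cluster 967 and 407 RPM. These transcript values lay under the gonad limit, and no stage difference is read from them. E7PGC had no RNA-seq. The transcript and small RNA libraries came from different breeds, and the relation was not tested.

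**Figure D4:**
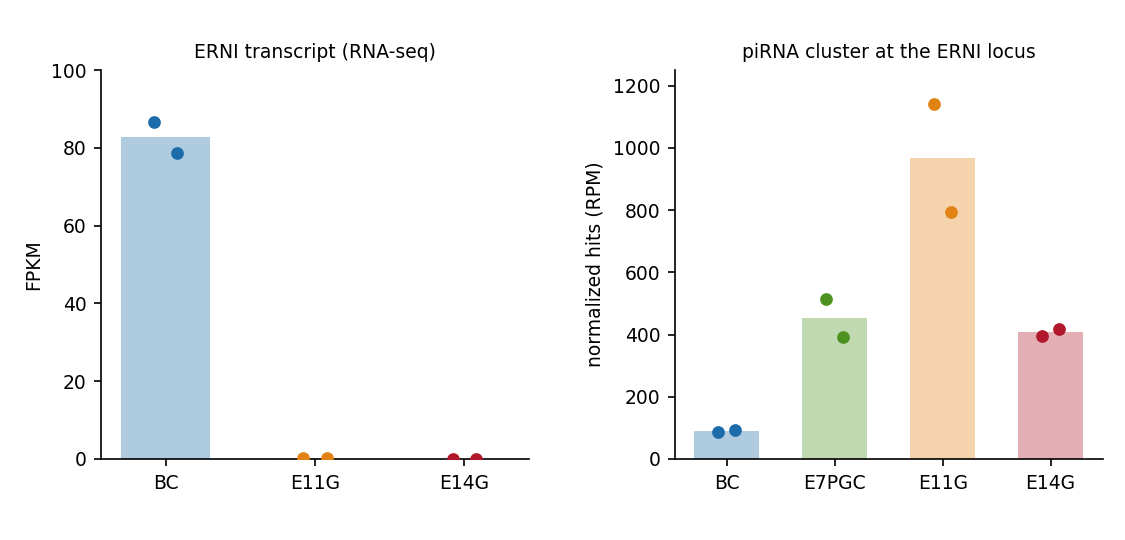
ERNI by stage. Left, FPKM of the ERNI transcript in JA57 broilers, and right, normalized hits in RPM of the piRNA cluster at its locus in other breeds. Bars are means and points single libraries, 2 for each stage. The transcript stood at 86.8 and 78.7 FPKM in BC and at most 0.317 FPKM in gonads, an order that the limits had fixed. The cluster was lowest in BC at 87.1 and 92.8 RPM and highest in E11G at 1140 and 793 RPM.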

How the data were processed

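The authors mapped strand-specific RNA-seq reads to galGal5 with Tophat2, assembled them with Cufflinks 2.2.1 and deposited FPKM scaled across libraries by Cuffnorm. Values are per transcript identifier, and the depth is unknown because no counts were used here. For small RNA, the authors deposited piRNA clusters called by an adapted proTRAC, with hits divided over genomic places and scaled to RPM, and with percentages of hits. These are text cells of a label and a value, and each was read as a number. The headers of the E7PGC lists name E6, and the stage E7 of the labels was used. Gene symbols came from RefSeq identifiers, 6005 of 6528 of which matched GRCg7b names.

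All 6 RNA-seq libraries entered 1 fit (limma 3.58.1 with a mean-variance trend, R 4.3.3) on log2(FPKM + 1), over 22368 transcripts of at least 1 FPKM in at least 1 library, with p-values adjusted by Benjamini-Hochberg and called under 0.05. The contrasts were BC minus the mean of E11G and E14G, and E14G minus E11G. Fold changes on this scale understate those of low transcripts. Clusters were overlapped with loci by at least 1 bp. The fit was also run on simulated data in which few transcripts differed, all of them higher in BC. In the measured data 80.3% were called in either direction, so that run does not show how reliable these calls are.

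The 14 transcripts and all lists were chosen with earlier results of these data known. The lists of relatives were drawn up after the 14 had been seen. All 14 were named, with the 3 transcripts outside each limit. The 2 highest in BC and the 2 lowest differences of each pathway list were picked as examples, but some of these were not described above. They averaged, in BC and in gonads, 66.3 and 39.5 FPKM for SNAI1, 100 and 63.3 FPKM for KRT7 and 66.9 and 31.0 FPKM for BUB1B. SOX2 averaged 3.68 and 0.287 FPKM, and TTR (NM_205335) 0.0595 and 6.10 FPKM. Other relatives and list genes were named after their values were seen. Promoter and protein sequences were not used here. Alternatives changed the limits, pseudocount, filter, scaling, trend, overlap and libraries.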

Additional observations from a re-analysis of the deposited data

How the results depend on the processing

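The number of transcripts within the limits rested on the limits themselves. It was 24 with a BC minimum of 10 FPKM, 7 with 40 FPKM, 8 with a gonad limit of 0.5 FPKM, 21 with a gonad limit of 2 FPKM and 55 over every identifier, and it was 14 to 15 without 1 library. With FPKM summed over the transcripts of a gene, an alternative chosen after seeing the data, the same 14 genes remained. The number was not counted again after rescaling by median of ratios, which divides BC values by 1.13 and 1.18. WNT3A (NM_001171601) and MAFA, nearest to the BC minimum, would then fall under it in the first BC library. Calls of E14G against E11G numbered 858, but 408 with no filter on low values and between 2 and 319 without 1 library, so they depend on every library, those of BC included. Calls of BC against gonads (17959) ranged from 15811 to 17674 without 1 library. Scaling by median of ratios set the median log2 difference of BC minus gonads to -0.22, against 0.02 as deposited, and 7763 against 9199 transcripts were then called higher in BC. Single transcripts were followed for BC against gonads in a choice outside the 14, and for E14G against E11G only in the 14, NANOG and DNMT3B. The calls of SALL4, SOX3, KDR, HBE, HBZ and HBBR between the gonad stages, described above, were not among them. Some relatives left unnamed here and the TEAD4 identifier NM_001306152 were also not followed. Among such relatives, some changed side after rescaling by median of ratios. Calls lower in BC rose from 1 to 2 for T-box transcripts and from 2 to 4 for Wnt receptors and WLS. Of the 73 comparisons that were followed, 63 kept their direction and side of the threshold under every alternative and none turned while called. The other 10 were FGF8, WNT5A, NANOG and DNMT3B as given above, LIN28A and ERNI with a pseudocount of 0.1 FPKM, at which both passed between the gonad stages, WNT6 and TDRD7 under scaling (log2 difference 0.11, adjusted p = 0.197, and -0.36, adjusted p = 0.00784), CHRD without a BC library (adjusted p = 0.0231) and FGFR3 under scaling, without the filter and without either BC library (adjusted p between 0.0646 and 0.0988). Of the 14 loci, 0 overlapped a cluster over at least 0.5 of their length, since the cluster covers a small part of the ERNI locus. No paired analysis was possible because the RNA-seq columns carry no replicate numbers and the small RNA values came from no test.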

Other observations

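The transcripts next to the 14 on the chromosome were described as well. Of 28 nearest tested neighbours, 1 on each side, 16 were called higher in BC and 7 lower, against 41.1% and 39.2% of all tested transcripts (limma, adjusted p under 0.05). Their median log2 difference of BC minus gonads was 0.51, against 0.02 over all tested transcripts, and the median gap was 20777.5 bp. WNT9A, the neighbour of WNT3A, was lower in BC at 4.53 FPKM, against 7.82 FPKM in gonads. This was opposite to the direction that the limits had fixed for WNT3A. SRSF3, a splicing factor next to CDKN1A, averaged 151 FPKM in BC.

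The same limits were met by 23 Ensembl and 18 newly assembled identifiers, none of which shared bases with the 14. For the 13 on a chromosome with a piRNA cluster, the median distance to the nearest one was 941634 bp, against 433565 bp over 6285 such RefSeq identifiers, and 1 of the 14 lay within 100 kb of a cluster, against 22.7%. Chromosome 33, which holds ERBB3, had no cluster.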
